A study of Mus musculus with 12 samples.

Results

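A set of 10 genes of the NRF2 antioxidant response and of the defence against ferroptosis was followed through gonadal white adipose tissue (GWAT) of mice that lack HOIP in fat cells. They are Nfe2l2, Nqo1, Gclc, Gclm, Txnrd1, Srxn1, Slc7a11, Gsr, Gpx4 and Aifm2, chosen by symbol from a table of 55281 annotated genes, and all 10 had enough reads to be tested. The samples are bulk RNA-seq libraries of male mice, 22 to 24 weeks old. Every mouse carried Hoip (Rnf31) fl/fl alleles. WT mice were AdipoQ.Cre- and HoipA-KO mice were AdipoQ.Cre+, where the adiponectin promoter drives Cre, so that the deletion is made in mature adipocytes and not in the other cells of the tissue. From 6 weeks of age they received a control diet with 14% fat (CD) or a high-fat diet with 60% fat (HFD) for 16 weeks. Each of the 4 groups has 3 libraries, and each library holds RNA pooled from the fat of 3 mice, so the spread is between pools and not between animals. The libraries held 30513500 to 60540260 estimated counts, and levels are given as CPM, that is counts scaled to a common library size after TMM normalisation over the 12 libraries.

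NRF2, the product of Nfe2l2, is a transcription factor that KEAP1 marks for degradation in resting cells. Oxidants and electrophiles release it, and with small MAF proteins it binds antioxidant response elements and turns on genes of glutathione and thioredoxin metabolism. Ferroptosis is a form of cell death driven by iron-dependent peroxidation of membrane lipids. Cells oppose it by importing cystine for glutathione (Slc7a11), by reducing lipid peroxides with glutathione (Gpx4), and by an independent arm in which FSP1, the product of Aifm2, regenerates ubiquinol.

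The core of the antioxidant response element was searched on both strands, spelled TGACNNNGC, in RefSeq promoter windows of GRCm38.p6 that run from 250 bases before to 50 bases after each transcript start. Windows were found for 8 of the 10 genes, and 4 of these held the letters in at least 1 window, against 14% of the 27025 genes with a window. The stretches below are shown because they are the places where an NRF2 partner site could be read in these genes. Each is written 5′ to 3′ on the strand that holds the element, and the 9 letters that match are in capitals.
Nfe2l2, chr2:75704885-75704913, gene strand: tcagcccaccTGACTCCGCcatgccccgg
Gclm, chr3:122245413-122245441, strand opposite to the gene: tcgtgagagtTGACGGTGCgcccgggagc
Txnrd1, chr10:82859104-82859132, strand opposite to the gene: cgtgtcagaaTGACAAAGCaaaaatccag
Srxn1, chr2:152105542-152105570, strand opposite to the gene: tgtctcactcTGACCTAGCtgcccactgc
Counted in the direction of the gene, the match begins 240 bases before the start of Nfe2l2, 134 before that of Gclm and 92 before an alternative start of Txnrd1. In Srxn1 it begins at base 29 of the transcript. No match was in the windows of Nqo1, Slc7a11, Gpx4 and Aifm2, which says only that these letters are not within those windows. A match is a run of letters and not a measured binding site.

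Before any comparison, 2 of the 3 WT CD libraries stood apart from the rest. A list of 10 epididymis and testis markers summed to 13.5 CPM in WT CD replicate 1, to 12688 CPM in replicate 2 and to 5927 CPM in replicate 3. In replicate 2 nearly all of this was Crisp1, a secreted protein of the epididymis, at 12431 CPM. In replicate 3 the protamine gene Prm2, which packs sperm DNA, was highest at 2936 CPM. The list reached 1309 CPM in HoipA-KO HFD replicate 1, again mostly Crisp1, and at most 142 CPM in the other libraries. The 3 WT CD libraries also correlated less with each other (r 0.793 to 0.904) than the libraries of any other group (0.971 to 0.993), where r is taken across genes, which are not independent replicates. The study's own comparisons leave out WT CD replicate 3, and the fits below do the same and use 11 libraries. Values over all 12 libraries, or without WT CD replicate 2, are given beside the calls among the 10 genes that they change, and for the other genes and lists as far as stated. Whether transcripts of the epididymis or testis take part in the WT CD levels of these genes was not tested.

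**Figure D1:**
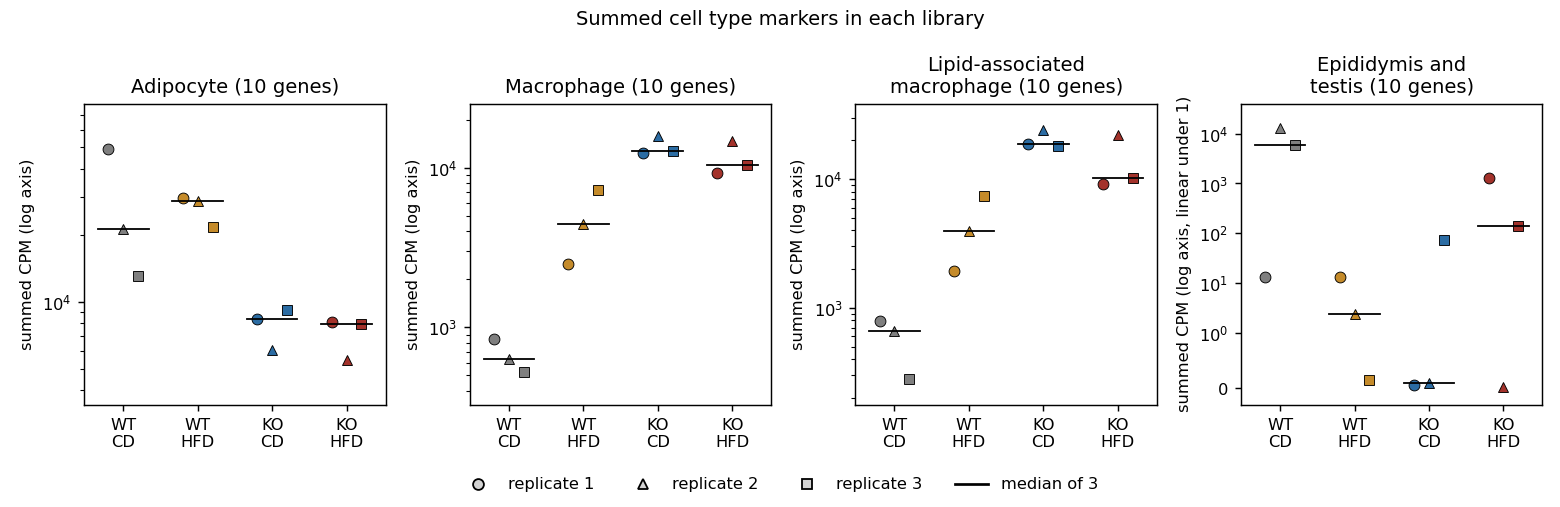
Summed CPM of 4 marker lists (10 genes each) in the 12 libraries, by group, on log axes (the right panel is linear under 1), with each point a library and each line the median of 3. The epididymis and testis list is high in WT CD replicates 2 (12688 CPM) and 3 (5927 CPM), adipocyte markers are lower and macrophage markers higher in all 6 HoipA-KO libraries than in all 6 WT libraries.

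Markers of cell types moved with genotype as well. Adipocyte markers (10 genes, most abundant Fabp4, a fatty acid carrier) summed to 13066 to 49290 CPM in the 6 WT libraries and to 5484 to 9204 CPM in the 6 HoipA-KO libraries. Macrophage markers (10 genes, most abundant Lyz2) ran from 522 to 7304 CPM in WT and from 9249 to 15768 CPM in HoipA-KO. Lipid-associated macrophage markers (10 genes, highest mean CPM Gpnmb) ran from 282 to 7366 CPM in WT and from 9104 to 24122 CPM in HoipA-KO. In every WT CD library Fabp5, Cd63 and Lgals3 lay above Gpnmb. None of the genes in these 3 lists was at 0 in any library. In bulk tissue fewer cells of a type and less RNA per cell cannot be told apart, and the part of this shift in the values below was not tested. Rnf31 itself, counted over the whole gene, was at 17.7 to 21.8 CPM in HoipA-KO CD and 12 to 20.9 CPM in WT CD (log2 fold change -0.08 ± 0.14, edgeR adjusted p = 0.654). Since reads of the floxed exons are not separated and other cells keep the gene, this count does not check the deletion.

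On CD, 3 of the 10 genes passed an adjusted p of 0.05 between HoipA-KO and WT, where 37.7% of the 18427 genes tested did. Nfe2l2 and Txnrd1 rose (18.9% of all genes did) and Gpx4 fell (18.8% did). The median log2 fold change of the 10 was 0.62, against -0.06 over all genes. With all 12 libraries 5 passed, where 34.7% of genes did, and Srxn1 and Gsr joined as higher. Without WT CD replicate 2, when replicate 1 alone stands for WT CD and is assumed to vary like the other groups, 5 passed as well (31.7% of genes), and they were Txnrd1, Srxn1 and Slc7a11 as higher and Gpx4 and Aifm2 as lower. Without WT CD replicate 1, replicate 2 alone stands for WT CD. Txnrd1 and Gpx4 then lost their calls, and the estimates were -1.93 for Nqo1, -1.66 for Slc7a11, 0.99 for Srxn1 and -0.22 for Aifm2. Leaving out HoipA-KO HFD replicate 2, which is outside this comparison but shares the estimate of the spread, gave 7 (37.2% of genes), with Gclm, Srxn1 and Gsr joining as higher and Aifm2 as lower. On HFD only Aifm2 passed, as lower, where 11.8% of genes passed in either direction, 4.2% as higher and 7.62% as lower. With 12 libraries none of the 10 passed on HFD (2.78% of genes). With 11 libraries, both diets gave Gpx4 and Aifm2 estimates below 0 and Nfe2l2, Gclc, Gclm, Txnrd1, Srxn1 and Gsr estimates above 0. On HFD those of Gclc (-0.13) and Gclm (-0.058) turned below 0 without HoipA-KO HFD replicate 2. The 7 genes that did not pass on CD are given below as values. Where groups are said not to overlap, this describes the printed libraries only. The share of all genes without overlap was not counted.

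**Figure D2:**
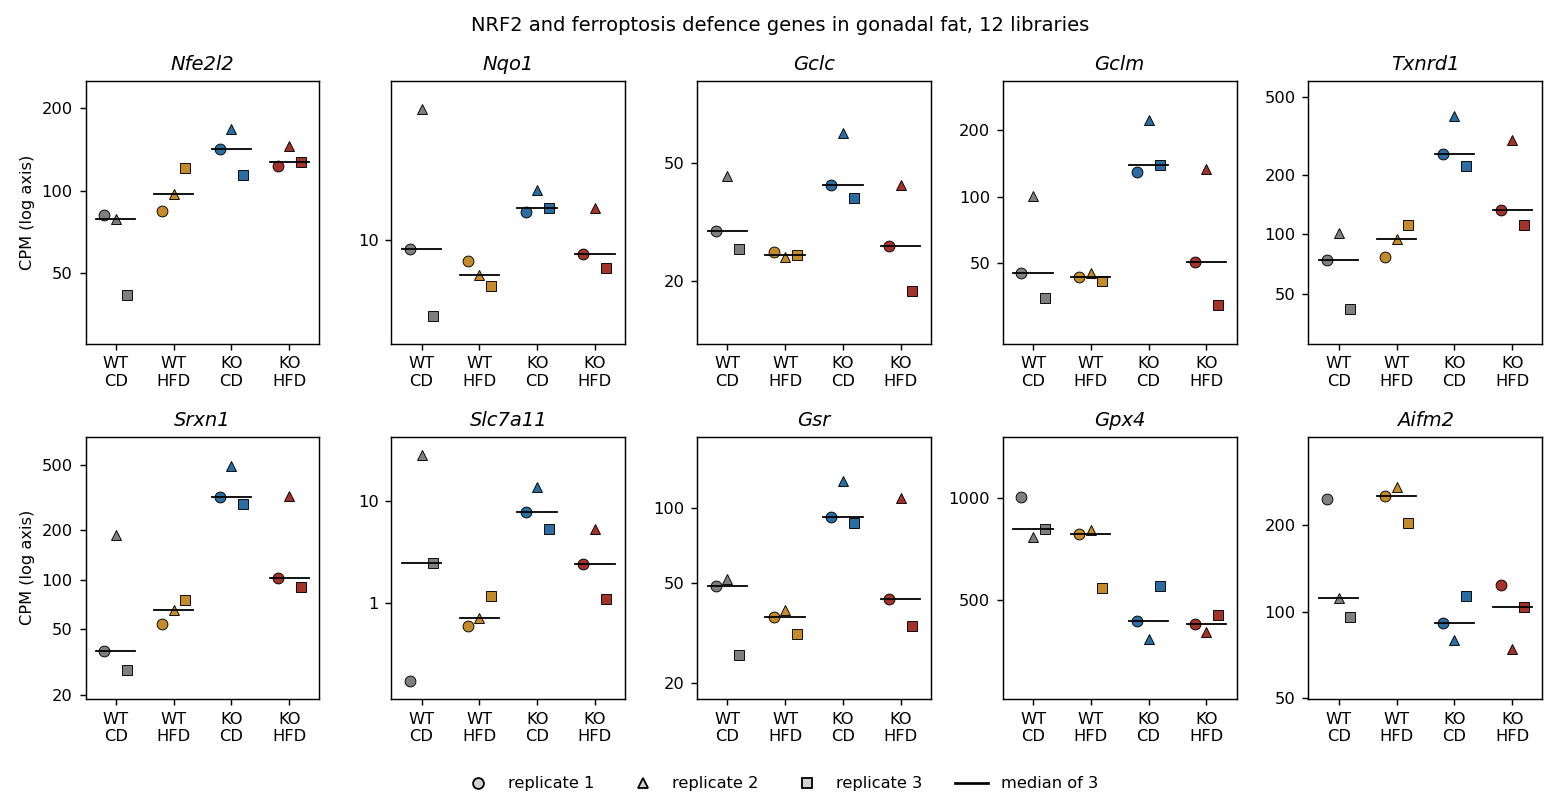
CPM of the 10 genes on log axes in WT and HoipA-KO (KO) GWAT on CD and HFD, with each point a library of 3 pooled mice and each line the median of 3. WT CD replicate 2 (grey triangle) is the highest WT library for Nqo1, Gclc, Gclm, Srxn1, Slc7a11 and Gsr, and HoipA-KO HFD replicate 2 (red triangle) lies above the other 2 libraries of its group for every gene but Gpx4 and Aifm2.

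The factor itself comes first. Nfe2l2 (ENSMUSG00000015839, chr2:75675513-75704641, minus strand, GRCm38) was at 81.2, 78.8 and 41.5 CPM in WT CD replicates 1, 2 and 3 and at 142, 167 and 114 CPM in HoipA-KO CD. The groups did not overlap on CD. The log2 fold change was 0.86 ± 0.21 (SE, 1.81-fold, edgeR adjusted p = 0.0127) and 1.04 with 12 libraries (adjusted p = 0.0119). Without WT CD replicate 2 it was 0.85 (adjusted p = 0.0504), just short of the threshold. On HFD, WT libraries held 84.0, 97.0 and 121 CPM and HoipA-KO libraries 123, 145 and 127 CPM, a gap of little more than 1 CPM between the nearest libraries. That difference, 0.41 ± 0.19, did not pass (adjusted p = 0.170).

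Txnrd1 and Srxn1 serve the thioredoxin system: Txnrd1 encodes the cytosolic thioredoxin reductase, a selenoprotein that keeps thioredoxin reduced, and Srxn1 encodes sulfiredoxin, which repairs overoxidised peroxiredoxins. Txnrd1 (ENSMUSG00000020250, chr10:82833951-82897712, plus strand) was at 74.5, 101 and 41.8 CPM in WT CD and at 257, 401 and 222 CPM in HoipA-KO CD. Every HoipA-KO CD library lay above every WT library of either diet. It rose 3.43-fold on CD (log2 1.78 ± 0.46, edgeR adjusted p = 0.0148), and without WT CD replicate 1 the value was 1.55 (adjusted p = 0.0676). On HFD it was at 76.7, 94.5 and 111 CPM in WT and at 133, 302 and 112 CPM in HoipA-KO (log2 0.98 ± 0.39, adjusted p = 0.123). The HoipA-KO HFD libraries were uneven, with replicates 1 and 3 near the WT range and replicate 2 well above it, and without replicate 2 the value of Txnrd1 was 0.39 (adjusted p = 0.426).

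Srxn1 (ENSMUSG00000032802, chr2:152105516-152111376, plus strand) had the same uneven libraries, and WT CD was uneven too. It was at 36.8, 186 and 28.3 CPM in WT CD and at 319, 492 and 287 CPM in HoipA-KO CD, without overlap. The log2 fold change on CD was 1.75 ± 0.73 (edgeR adjusted p = 0.0852), 2.10 with 12 libraries (adjusted p = 0.0439), 3.37 without WT CD replicate 2 (adjusted p = 0.0141) and 0.99 without WT CD replicate 1 (adjusted p = 0.288). The call thus depended on the libraries and the fit, and it was made in 7 of 23 alternatives. On HFD, WT libraries held 53.9, 65.6 and 75.1 CPM and HoipA-KO libraries 102, 322 and 90.7 CPM, again without overlap (log2 1.43 ± 0.63, adjusted p = 0.152). The value was 0.57 without HoipA-KO HFD replicate 2 (adjusted p = 0.527).

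Glutathione is made by glutamate-cysteine ligase, whose catalytic subunit is Gclc and whose modifier subunit is Gclm, and glutathione reductase (Gsr) returns it to its reduced form. Gclc (ENSMUSG00000032350, chr9:77754535-77794485, plus strand) was at 29.6, 45.3 and 25.7 CPM in WT CD and 42.2, 63.1 and 38.1 CPM in HoipA-KO CD, and the groups overlapped (log2 0.39 ± 0.35, edgeR adjusted p = 0.408). Gclm (ENSMUSG00000028124, chr3:122245557-122270732, plus strand) was at 45.0, 100.4 and 34.6 CPM in WT CD and 130, 223 and 140 CPM in HoipA-KO CD, without overlap (log2 1.21 ± 0.58, adjusted p = 0.123). Neither passed in the fit of 11 libraries. The estimate of Gclm was 0.72 without WT CD replicate 1 (adjusted p = 0.427) and 1.92 without WT CD replicate 2 (adjusted p = 0.0777), and it passed in 4 of 23 alternatives, with WT CD replicates 1 and 3 among them (2.01, adjusted p = 0.0188). Gsr (ENSMUSG00000031584, chr8:33652523-33698163, plus strand) was at 48.8, 52.0 and 26.0 CPM in WT CD and 91.5, 128 and 87.1 CPM in HoipA-KO CD. Here too the groups did not overlap, and the call depended on the libraries used: log2 1.06 ± 0.44 (adjusted p = 0.0862) with 11 libraries and 1.25 (adjusted p = 0.0390) with 12.

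On HFD the same genes of glutathione metabolism overlapped between genotypes. Gclm was at 43.1, 45.1 and 41.3 CPM in WT and 50.4, 133 and 32.4 CPM in HoipA-KO (log2 0.76 ± 0.50, edgeR adjusted p = 0.317). Gsr was at 36.7, 39.1 and 31.4 CPM in WT and 43.2, 109 and 33.9 CPM in HoipA-KO (log2 0.82 ± 0.39, adjusted p = 0.179). Gclc ranged from 24.1 to 25.0 CPM in WT and from 18.5 to 42.2 CPM in HoipA-KO (log2 0.26 ± 0.31, adjusted p = 0.596). HoipA-KO HFD replicate 2 held the highest value of its group for all 3, and without it the estimates on HFD were -0.06 for Gclm, 0.11 for Gsr and -0.13 for Gclc. That library also had the highest sum of lipid-associated macrophage markers of its group, 21874 CPM against 9104 and 10195 CPM, and the part of those cells was not tested. The Gclm counts were fractional in all 12 libraries, and 244 of its exonic bases overlap a pseudogene on the same strand (Gm6061), which was at 0.701 CPM on average. Whether the 2 shared reads was not tested.

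Slc7a11 encodes the light chain of the cystine and glutamate exchanger xCT, and Nqo1 encodes a quinone reductase often read as a marker of NRF2 activity. For both, 1 library set the WT CD value. Slc7a11 (ENSMUSG00000027737, chr3:49892526-50443614, minus strand) was at 0.17, 28.7 and 2.46 CPM in WT CD and at 7.81, 13.8 and 5.30 CPM in HoipA-KO CD. With 11 libraries its log2 fold change on CD was -0.65 ± 1.26 (edgeR adjusted p = 0.711), and without WT CD replicate 2 it was 5.75 (adjusted p = 0.00749). With WT CD replicates 1 and 3 it was 2.7 (adjusted p = 0.0712), and without WT CD replicate 1 it was -1.66 (adjusted p = 0.0992). Both values without replicate 2 are above 0, and the largest rests on 1 WT CD library with 7.33 estimated counts. On HFD, WT libraries held 0.60, 0.71 and 1.17 CPM and HoipA-KO libraries 2.43, 5.31 and 1.08 CPM (log2 1.84 ± 1.21, adjusted p = 0.322), and the value was 1.08 without HoipA-KO HFD replicate 2 (adjusted p = 0.623).

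Nqo1 (ENSMUSG00000003849, chr8:107388225-107403206, minus strand) was at 8.67, 65.9 and 3.33 CPM in WT CD and at 14.8, 20.6 and 15.8 CPM in HoipA-KO CD. All HoipA-KO CD libraries lay above WT CD replicates 1 and 3 and below replicate 2. The log2 fold change was -1.10 ± 0.66 with 11 libraries (edgeR adjusted p = 0.211), 1.03 without WT CD replicate 2 (adjusted p = 0.139), -1.93 without WT CD replicate 1 (adjusted p = 0.00623) and 1.49 with WT CD replicates 1 and 3 (adjusted p = 0.0365), so its direction turned with the choice of WT CD libraries. HoipA-KO HFD replicate 1, the HoipA-KO library with high Crisp1, held 8.13 CPM of Nqo1 and 2.43 CPM of Slc7a11, both between the other 2 libraries of its group. Its Crisp1, at 1307 CPM, was far below the 12431 CPM of WT CD replicate 2. The part of epididymis transcripts in Nqo1 and Slc7a11 was not tested. On HFD, Nqo1 was at 7.37, 5.96 and 5.11 CPM in WT and 8.13, 15.8 and 6.61 CPM in HoipA-KO (log2 0.75 ± 0.60, adjusted p = 0.414).

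**Figure D3:**
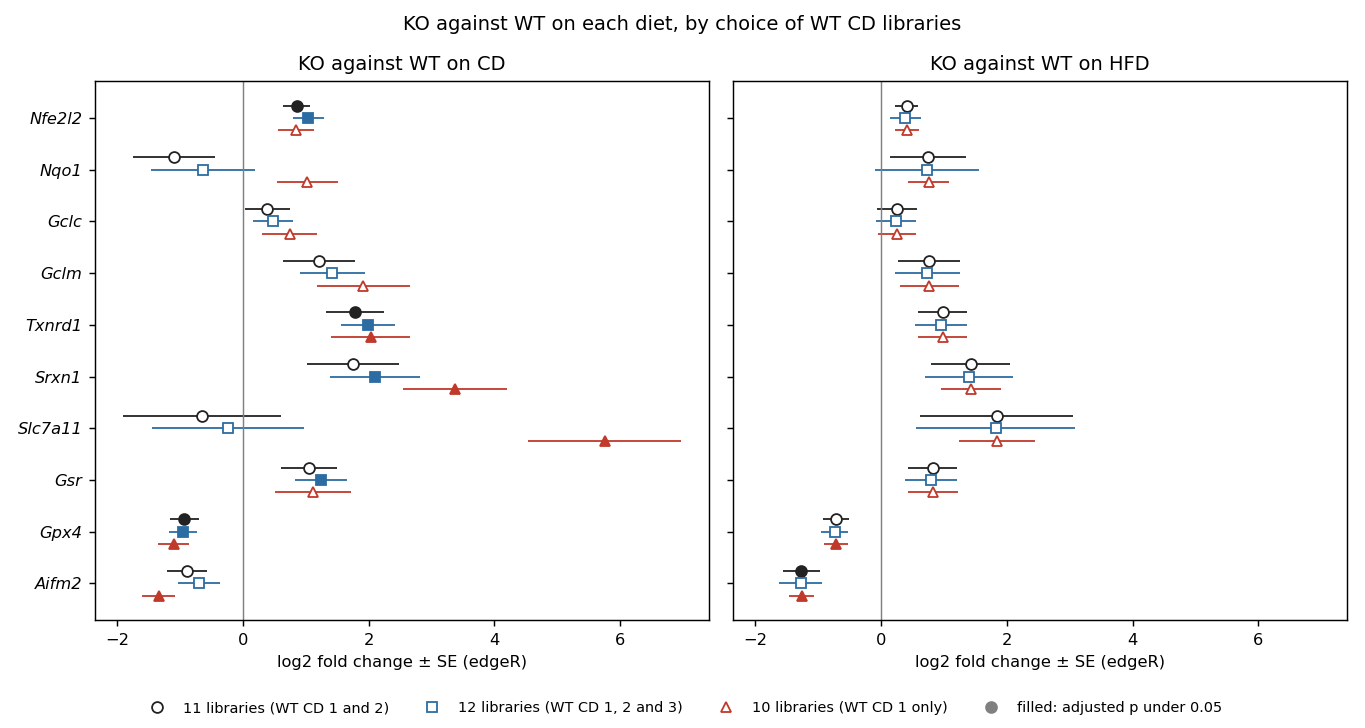
Log2 fold change ± SE (edgeR) of HoipA-KO (KO) against WT on CD (left) and HFD (right) for the 10 genes, fitted with 11 libraries (circles), 12 libraries (squares) or 10 libraries with WT CD replicate 1 alone (triangles), with filled symbols for an adjusted p under 0.05. Slc7a11 goes from -0.65 to 5.75 and Nqo1 from -1.10 to 1.03 on CD once WT CD replicate 2 is left out, while Txnrd1 stays above 0 and Gpx4 below 0 with filled symbols in all 3 fits on CD.

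Gpx4 and Aifm2 encode enzymes that act on lipid peroxidation. Gpx4, the selenoprotein that reduces phospholipid hydroperoxides (ENSMUSG00000075706, chr10:80047166-80056439, plus strand), was at 1009, 769 and 810 CPM in WT CD and at 434, 384 and 552 CPM in HoipA-KO CD. The groups did not overlap, and Gpx4 fell by 47.5% (log2 -0.93 ± 0.23, edgeR adjusted p = 0.0110). With 12 libraries the value was -0.95 (adjusted p = 0.00948) and without WT CD replicate 2 it was -1.10 (adjusted p = 0.010), while without replicate 1 it was -0.74 (adjusted p = 0.0532). On HFD it was at 784, 805 and 544 CPM in WT and 426, 403 and 453 CPM in HoipA-KO. These groups did not overlap either, and the log2 fold change of -0.72 ± 0.21 missed the threshold (adjusted p = 0.0513). It passed in 8 of 23 alternatives, among them DESeq2 (-0.70, adjusted p = 0.0040) and the fit without WT CD replicate 2 (-0.71, adjusted p = 0.0303), and not with 12 libraries (-0.73, adjusted p = 0.0891). Gpx4 counts were fractional in all 12 libraries, and its processed pseudogene Gpx4-ps2 was counted at 29.5 CPM on average, so the level of Gpx4 is uncertain by the reads that the 2 may share.

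Aifm2 (ENSMUSG00000020085, chr10:61715263-61739260, plus strand) was at 247, 111 and 95.4 CPM in WT CD and at 91.3, 79.6 and 113 CPM in HoipA-KO CD. The groups overlapped on CD, with WT CD replicate 1 well above the other 2 libraries of its group. The log2 fold change was -0.88 ± 0.32 (edgeR adjusted p = 0.0520), -0.70 with 12 libraries (adjusted p = 0.124), -1.34 without WT CD replicate 2 (adjusted p = 0.00582) and -0.22 without replicate 1 (adjusted p = 0.597). On HFD the libraries were even, at 254, 272 and 204 CPM in WT and at 123, 74.2 and 103 CPM in HoipA-KO, without overlap. There Aifm2 fell by 58.4% (log2 -1.26 ± 0.29, adjusted p = 0.0281), and with 12 libraries the value was -1.28 (adjusted p = 0.0691). Leaving out either of WT HFD replicates 1 and 2, or either of HoipA-KO HFD replicates 2 and 3, also lost the call, with values from -1.29 to -1.10 and adjusted p from 0.0721 to 0.100. Of its exonic bases, 233 are shared with H2afy2 on the other strand, which was at 3.88 CPM on average, and the kit was stranded, while the strand setting of the counting is not given in the sources used here.

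Beside the lower Gpx4 on CD and the lower Aifm2 on HFD, adipocyte markers were called lower in HoipA-KO for 9 of 10 genes on CD (18.8% of all genes were) and for 10 of 10 on HFD (7.62% were), and for 8 and 7 with 12 libraries. The median log2 fold change of these markers was -1.92 on CD and -2.04 on HFD, lower than the estimates of Gpx4 and Aifm2 in each case. Macrophage markers were called higher for 10 of 10 genes on CD (median log2 fold change 4.04) and for 5 of 10 on HFD (median 1.22). For lipid-associated macrophage markers the counts were 10 of 10 on CD (median 5.68) and 4 of 10 on HFD (median 1.49), where 18.9% and 4.2% of all genes were higher. With 12 libraries all 20 stayed called on CD and 0 were called on HFD with edgeR, where 3931 of all genes had an unadjusted p under 0.05. None of these markers was called on HFD without HoipA-KO HFD replicate 2. The share of all genes called in that fit is not given, so this loss is not set apart from a general one. Their part in the values of the 10 genes was not tested.

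The diet comparison in WT asks how the same genes respond to fat feeding alone, and it shares its WT CD libraries with the comparison of genotypes on CD. Nqo1 alone passed, as lower, where 14.8% of genes passed (9.35% as higher and 5.47% as lower). Its log2 fold change was -2.61 ± 0.67 with 11 libraries (edgeR adjusted p = 0.0322), -2.10 with 12 (adjusted p = 0.113, and none of the 10 passed where 15% of genes did), -0.49 without WT CD replicate 2 and 0.01 with WT CD replicates 1 and 3. Without WT CD replicate 2, none of the 10 passed (5.52% of genes did). When replicate 1 was left out instead, 3 passed (29.7% of genes did), Nqo1 (-3.42, adjusted p = 0.000936) and Slc7a11 (-5.09, adjusted p = 0.00235) as lower and Aifm2 (1.14, adjusted p = 0.0280) as higher. Slc7a11 had a log2 fold change of -4.12 ± 1.36 (adjusted p = 0.0693) with 11 libraries and of 2.28 without WT CD replicate 2. For Nfe2l2 the value was 0.34 ± 0.21 (adjusted p = 0.306), for Txnrd1 0.10 ± 0.43 (adjusted p = 0.896) and for Aifm2 0.45 ± 0.33 (adjusted p = 0.374). Both genes with estimates below -2 held their highest value in WT CD replicate 2, which was also the highest WT library for Gclc, Gclm, Srxn1 and Gsr. The part of its epididymis transcripts in these values was not tested. The median of the 10 was -0.55, against 0.00 over all genes.

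In HoipA-KO, HFD against CD gave no call among the 10 genes and none among all genes (0%) with edgeR, where 415 genes had an unadjusted p under 0.05 and DESeq2 called 7 genes. The estimates were below 0 for 9 of the 10 genes and for 52.7% of all genes tested. Gclm had the lowest unadjusted p (log2 -1.20 ± 0.50, unadjusted p = 0.0389 and adjusted p = 1 with edgeR), and Gclc followed (log2 -0.74 ± 0.32, unadjusted p = 0.0415). Aifm2 was the exception at 0.07 ± 0.29. HoipA-KO HFD replicates 1 and 3 were below all HoipA-KO CD libraries for Gclm, Txnrd1, Srxn1, Slc7a11, Gsr and Gclc, and replicate 2 lay within the HoipA-KO CD range for all 6. Without HoipA-KO HFD replicate 2 the estimates were -2.02 for Gclm, -1.96 for Srxn1 and -1.44 for Gsr. HoipA-KO libraries were matched across diets by replicate number, because same-number deviations correlated in these data. The design does not pair them. In all 3 such pairs the HFD library lay below the CD library for Nqo1, Gclc, Gclm, Txnrd1, Srxn1, Slc7a11 and Gsr. The same held for 16.7% of all genes tested. A paired fit of the 6 HoipA-KO libraries, chosen after seeing the data, called 0 of 16826 genes as well, with 1300 at an unadjusted p under 0.05, these 7 genes among them. There Slc7a11 was at -1.77 ± 0.22 (unadjusted p = 0.000526, edgeR adjusted p = 0.424) and Gclm at -1.40 ± 0.27 (adjusted p = 0.526). Since the pairs were picked from the same counts, the errors and p-values of this fit are not an independent test. The interaction of genotype and diet, which asks whether the genotype effect differed between diets, called none of the 10 (3.91% of genes), with adjusted p between 0.251 for Nqo1 and 0.899 for Gclc.

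**Figure D4:**
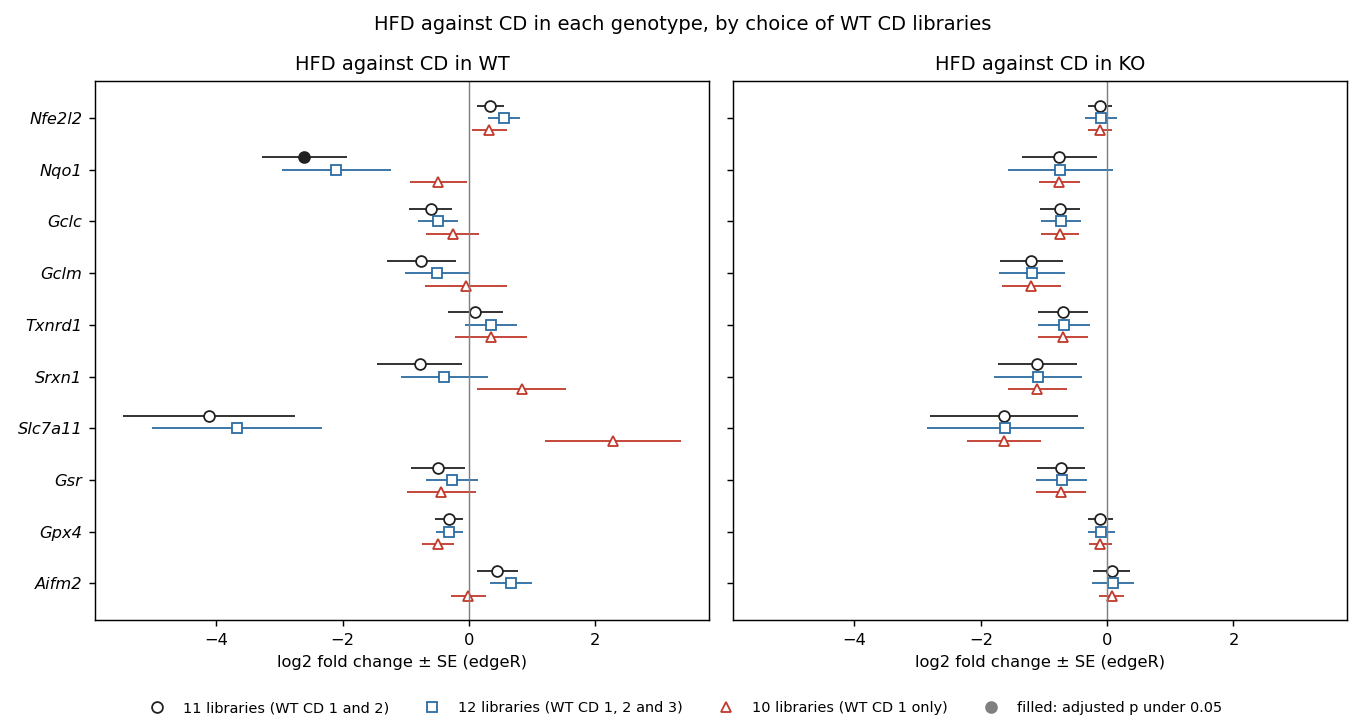
Log2 fold change ± SE (edgeR) of HFD against CD in WT (left) and HoipA-KO (KO, right) for the 10 genes, fitted with 11 libraries (circles), 12 libraries (squares) or 10 libraries with WT CD replicate 1 alone (triangles), with filled symbols for an adjusted p under 0.05. Nqo1 at -2.61 in WT is the only filled symbol, and no symbol is filled in HoipA-KO.

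The remaining genes of these pathways were read from lists of symbols. Their counts stand against 18.9% of all genes higher and 18.8% lower on CD, and 4.2% and 7.62% on HFD. For the diet in WT the shares were 9.35% and 5.47%. Counts with 12 libraries stand against 2812 of 18074 genes higher and 3458 lower on CD, and 96 and 407 on HFD. For HFD without HoipA-KO HFD replicate 2 the share of all genes is not given. List counts of that fit are therefore not set apart from a general loss of calls. Leaving out WT HFD replicate 1, for example, took all genes called on HFD from 2179 to 279. Among 23 other NRF2 targets, 9 rose and 3 fell in HoipA-KO on CD, with a median log2 fold change of 0.81 against -0.06 over all genes, and with 12 libraries 13 rose and 3 fell. The largest changes were those of Hmox1, which degrades haem, Ftl1, the ferritin light chain, and Blvrb, a biliverdin reductase. Hmox1 was at 37.7, 21.8 and 18.3 CPM in WT CD and at 488, 795 and 621 CPM in HoipA-KO CD (log2 4.46 ± 0.57, edgeR adjusted p = 0.000625). Ftl1, the most abundant gene of the list, went from 2650, 1965 and 1002 CPM to 11859, 14380 and 14231 CPM (log2 2.58 ± 0.39, adjusted p = 0.00117). Blvrb rose by 2.51 ± 0.41 on the log2 scale (adjusted p = 0.00175). Without WT CD replicate 2 the values were 4.12 for Hmox1, 2.39 for Ftl1 and 2.25 for Blvrb. Fth1, Prdx1, Txn1, Ugdh, Ephx1 and Slc48a1 were the other genes of the list that rose, and Me1, Gsta3 and Gsta4 fell.

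On HFD, 5 of the 23 rose and 1 fell (median 0.15, all genes 0.06). Hmox1 rose by 1.61 ± 0.42 (edgeR adjusted p = 0.0401) and Cbr3, a carbonyl reductase, by 1.56 ± 0.42 (adjusted p = 0.0436), and with 12 libraries neither passed (adjusted p = 0.0705 and 0.138). Me1, the cytosolic malic enzyme that supplies NADPH for lipid synthesis, was at 864, 1019 and 629 CPM in WT HFD and at 240, 118 and 147 CPM in HoipA-KO HFD, and it fell by 2.31 on the log2 scale (SE 0.31, adjusted p = 0.00871). Without HoipA-KO HFD replicate 2 the count was 1 higher and 1 lower, and with 12 libraries 0 and 1. In WT the diet raised Hmox1 (2.10 ± 0.50, adjusted p = 0.0252) and lowered Gsta4 and Gstp1, glutathione transferases, by 2.34 and 1.19 on the log2 scale, with 2 of the 23 higher and 3 lower. When WT CD replicate 1 alone stood for its group, Hmox1, Gsta4 and Gstp1 lost their calls. The values were then 1.76 for Hmox1, -2.37 for Gsta4 and -0.81 for Gstp1.

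Of 13 regulators of NRF2, 4 rose and 1 fell on CD (median log2 fold change 0.14). Sqstm1, whose product p62 sequesters KEAP1, had the highest mean CPM of the list, but Nfe2l1 lay above it in every WT library. Sqstm1 rose by 1.31 ± 0.23 (edgeR adjusted p = 0.00220) and Bach1, a repressor that competes at the same elements, by 1.31 ± 0.35 (adjusted p = 0.0166). The small MAF gene Maff rose by 0.82 ± 0.27 (adjusted p = 0.0385). Without WT CD replicate 2 the list had 2 higher and 2 lower genes, and Maff was at 0.46 (adjusted p = 0.189). On HFD the single call was Nfe2l1, an NRF2 relative, as lower (-0.91 ± 0.22, adjusted p = 0.0329). It was lost with 12 libraries (adjusted p = 0.0831). Maff on HFD was at -0.82 with 11 libraries (edgeR adjusted p = 0.0510) and also at -0.82 without WT CD replicate 2. In WT the diet raised Maff (1.34 ± 0.27, adjusted p = 0.0141), the one call of the list, which was lost without WT CD replicate 2 (0.98, adjusted p = 0.0578).

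**Figure D5:**
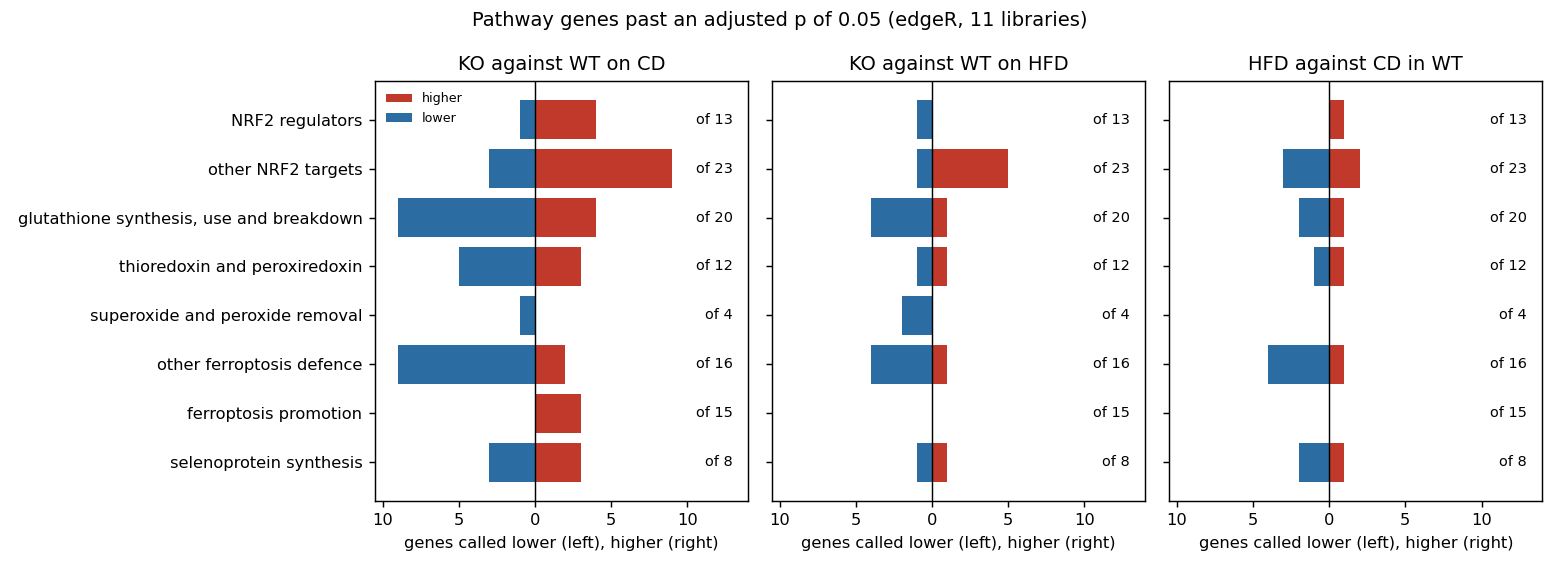
Number of genes of each pathway list called lower (left, blue) and higher (right, red) at an adjusted p of 0.05 (edgeR, 11 libraries) in 3 comparisons, with the number of genes tested at the right of each row. On CD the other NRF2 targets have 9 higher and 3 lower, and the other ferroptosis defence genes 2 higher and 9 lower. Prdx1 and Txn1 are counted both among the other NRF2 targets and among the thioredoxin and peroxiredoxin genes.

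The list of 20 genes for the synthesis, use and breakdown of glutathione had 4 higher and 9 lower genes on CD (median -0.54). Its largest changes were in Cbs and Cth, which make cysteine from homocysteine, and in Gpx3, the plasma glutathione peroxidase. Gpx3 had the highest mean CPM of the list, but Gpx1 lay above it in all 9 libraries outside WT CD. Cbs, Cth and Gpx3 had their highest value in WT CD replicate 2. Cth was at 12.2, 102 and 3.47 CPM in WT CD and at 2.44, 3.80 and 4.81 CPM in HoipA-KO CD (log2 -3.92 ± 0.86, edgeR adjusted p = 0.00704), and without that library the value was -1.68 (adjusted p = 0.101). Gpx3 was at 1352, 5964 and 360 CPM in WT CD (log2 -2.63 ± 0.56, adjusted p = 0.00602), and its value was -1.18 without that library (adjusted p = 0.0609) and -2.15 with 12 libraries (adjusted p = 0.0553). Cbs held its call without it (-2.75, adjusted p = 0.0328, against -5.44 with it). Without WT CD replicate 2 the list had 2 higher and 7 lower, and with 12 libraries 5 and 6. On HFD 1 was higher and 4 lower, led by the membrane glutathione transferases Mgst3 (-1.37 ± 0.27, adjusted p = 0.0172) and Mgst2 (-1.24 ± 0.26, adjusted p = 0.0223). Chac1, which breaks down glutathione, fell on HFD as well (-1.21 ± 0.29, adjusted p = 0.0317). Glrx, a glutaredoxin, rose on HFD (1.01 ± 0.20, adjusted p = 0.0163) and on CD (1.95 ± 0.23, adjusted p = 0.000519). In WT it rose with HFD (0.94 ± 0.22, adjusted p = 0.0246, and 0.0512 without WT CD replicate 2). With 12 libraries none of the 20 passed on HFD, nor did any without HoipA-KO HFD replicate 2.

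Of 12 thioredoxin and peroxiredoxin genes, 3 rose and 5 fell on CD (median -0.26), and with 12 libraries 2 rose and 2 fell. Prdx1 and Txn1 are also in the list of other NRF2 targets and were counted there among the genes that rose. Prdx1, a cytosolic peroxiredoxin and a substrate of sulfiredoxin, was at 611, 666 and 222 CPM in WT CD and at 2844, 4361 and 2836 CPM in HoipA-KO CD (log2 2.43 ± 0.57, edgeR adjusted p = 0.00952). Txn1, thioredoxin itself, rose by 1.46 ± 0.27 (adjusted p = 0.00325), and its value on HFD was 1.19 ± 0.23 (adjusted p = 0.0172), a call lost with 12 libraries (adjusted p = 0.101). The genes that fell were Txn2, Txnrd3, Prdx3, Prdx6 and Sesn2, of which Txn2 and Prdx3 encode mitochondrial proteins, and Prdx3 did not pass with 12 libraries (adjusted p = 0.111). Prdx4, of the endoplasmic reticulum, rose by 1.30 with 11 libraries (adjusted p = 0.00117) and by 0.56 with 12 (adjusted p = 0.250), since WT CD replicate 3 held 76.3 CPM against 32.4 and 24.0 CPM. Of the 4 genes for removal of superoxide and peroxide, Sod2, the mitochondrial superoxide dismutase, had a log2 fold change of -0.90 ± 0.20 on CD (adjusted p = 0.00807) and of -0.94 ± 0.19 on HFD (adjusted p = 0.0180), the latter at an adjusted p of 0.0708 with 12 libraries. Sod3, the extracellular superoxide dismutase, fell on HFD (-1.71 ± 0.37, adjusted p = 0.0233, and 0.0477 with 12 libraries) and had a value of -1.03 on CD (adjusted p = 0.0664, and 0.0118 without WT CD replicate 2). Cat, with the highest mean CPM of the 4, was in neither set of calls. Without HoipA-KO HFD replicate 2 none of the 4 passed on HFD.

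Of 16 other genes of ferroptosis defence, 2 were higher and 9 lower on CD (median -0.75), and 2 and 5 with 12 libraries. Scd1, the desaturase that makes monounsaturated fatty acids and the most abundant gene of the list, was at 49901, 27435 and 15158 CPM in WT CD and at 4253, 1018 and 3082 CPM in HoipA-KO CD (log2 -3.77 ± 0.56, edgeR adjusted p = 0.00112). It fell on HFD as well (-2.75 ± 0.52, adjusted p = 0.0153). Prom2, which exports ferritin from cells, and Mboat2, a lysophospholipid acyltransferase, also passed as lower on CD, but Prom2 was at 1433 CPM in WT CD replicate 2 and at 0.02 to 7.08 CPM in the other 11 libraries. Mboat2 was at 125 CPM in the same library and at 0.59 to 15.6 CPM elsewhere. When WT CD replicate 1 alone stood for its group, neither passed (-1.19 for Mboat2, adjusted p = 0.213, and 6.18 for Prom2, adjusted p = 0.141), and the list then had 3 higher and 6 lower genes. With WT CD replicates 1 and 3, Mboat2 passed as lower (-2.91, adjusted p = 0.0171) and Prom2 did not (-0.96, adjusted p = 0.697). Cisd1, an iron-sulfur protein of the outer mitochondrial membrane, fell on HFD (-1.09 ± 0.15, adjusted p = 0.00871, and 0.0570 with 12 libraries). The 2 genes higher on CD were Gch1 and Dhcr7. Dhcr7 is the last enzyme of cholesterol synthesis and uses up a sterol, 7-dehydrocholesterol, that protects lipids from peroxidation, so its known role runs against the name of the list. It rose on CD in HoipA-KO (1.19 ± 0.19, adjusted p = 0.00147) and rose with HFD in WT (1.53 ± 0.19, adjusted p = 0.00617). Gch1, which starts the synthesis of tetrahydrobiopterin, rose on HFD (0.92 ± 0.23, adjusted p = 0.0363, and 0.145 with 12 libraries), where 1 of 16 was higher and 4 lower, and without HoipA-KO HFD replicate 2 none was higher and 1 lower.

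Of 15 genes that promote ferroptosis, 3 rose on CD, a share near that of all genes, and none fell (median 0.33). On HFD none passed with 11 libraries. Vdac2 was then at 0.61 (edgeR adjusted p = 0.0595), and also at 0.61 without WT CD replicate 2. Those that rose on CD were Alox5, the leukocyte 5-lipoxygenase (1.53 ± 0.30, edgeR adjusted p = 0.00408), the tumour suppressor Trp53 (0.96 ± 0.16, adjusted p = 0.00175) and Vdac2 (0.60 ± 0.21, adjusted p = 0.0454). Vdac2 had the highest mean CPM of the list, but Por and Ncoa4 lay above it in every WT HFD library. Vdac2 lost its call without WT CD replicate 2 (0.69, adjusted p = 0.0793) and with 12 libraries (0.32, adjusted p = 0.272), and without that replicate the list had 4 higher and 1 lower. The 8 genes of selenoprotein synthesis, on which Gpx4 and Txnrd1 depend, had 3 higher and 3 lower on CD (median 0.36), and 2 and 2 with 12 libraries. Selenop, the plasma selenium carrier, rose by 1.91 ± 0.33 (adjusted p = 0.00224), and Sephs2, Sepsecs and Pstk, which make selenocysteine, fell, Pstk not with 12 libraries (adjusted p = 0.0779). Scly, which releases selenium from selenocysteine, rose by 1.43 ± 0.26 (adjusted p = 0.00278). On HFD 1 of the 8 was higher and 1 lower, and 0 and 1 with 12 libraries. Sepsecs fell (-0.89 ± 0.15, adjusted p = 0.0115, and 0.0341 with 12 libraries). Eefsec, the elongation factor for selenocysteine, had a value of 0.44 ± 0.12 (adjusted p = 0.0484), a call lost with 12 libraries (adjusted p = 0.567). Lrp8, the receptor of Selenop, rose by 4.25 with 11 libraries (adjusted p = 0.0112) but had a value of -0.49 with 12, since WT CD replicate 3 held 47.2 CPM against 0.41 and 0.90 CPM in the other WT CD libraries.

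Across the 12 libraries, the genes most like each of the 10 were sought by the root mean square difference of log2(CPM + 1) around each gene's own mean, among 10234 genes with a mean of at least 10 CPM. Nfe2l2 was closest to M6pr (0.08), Tent2 (0.09) and Elf1 (0.10), against its own SD of 0.51. Gclm (0.26) and Gsr (0.21) were both closest to Tfrc, the transferrin receptor, Txnrd1 was closest to Pkm (0.25) and Srxn1 to Prdx1 (0.47). Slc7a11 was closest to Pgap1 (0.69) and then to Mthfd1l (0.72) and Mthfd2 (0.75), enzymes of mitochondrial folate metabolism, against its own SD of 1.36, so the match is loose. Nqo1 was closest to Got2 (0.45), Gclc to Mia2 (0.29) and Aifm2 to C1rl (0.14). Gpx4 was closest to Gpx4-ps2 (0.11), with which it can share reads.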

How the data were processed

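Bulk GWAT RNA from 4 groups of 3 pooled libraries was analysed. Per the submitters' processing notes and the methods, the authors trimmed reads with Trim Galore 0.6.7, aligned them with STAR 2.7.10a and quantified genes with Salmon 1.5.2. The notes give GRCm38 as the build, whereas a human assembly stands in the methods. Positions come from GENCODE vM21 (GRCm38), matched by Ensembl identifier. The deposited values are estimated counts for all genes and for 21646 protein-coding genes, without normalisation. Deposited DESeq2 1.38.1 results of the authors (fold changes and p-values) were not used.

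Estimated counts were rounded, filtered with filterByExpr, normalised by TMM and fitted as 1 model of 4 groups in edgeR (quasi-likelihood test), with p-values adjusted by Benjamini-Hochberg over all genes tested (threshold 0.05, prior count 0.125; R 4.3.3, edgeR 4.0.16, limma 3.58.1). The fit leaves out WT CD replicate 3, as the study did. Standard errors of log2 fold changes are the estimate divided by the root of its F statistic. On simulated data the procedure recovered fewer of the changed genes than first required, missing part of the smaller changes. The requirement was then restricted to large changes, false calls and the size of the estimates, and the procedure was kept. At 30513500 to 60540260 counts, a floor of 3 counts is 0.0496 to 0.0983 CPM, which covers counting error only. Alternatives were DESeq2 1.42.0, other normalisations, filters, thresholds and library choices, each library left out in turn, and a replicate block. The block over 12 libraries and the paired fit of HoipA-KO libraries were added after seeing the data. HoipA-KO CD and HFD libraries of the same number were taken as paired, from the data and not the design, since their deviations from the group means correlated across genes in every pair (r 0.139, 0.499 and 0.277). No other comparison met this rule. HoipA-KO HFD replicate 1 correlated more with HoipA-KO CD replicate 3 (r 0.252) than with its own number. Deviations within a group sum to 0, so these r values are not independent of each other.

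The genes, lists and tests were chosen with earlier results of these data known. Genes were named from a pathway list if they passed the threshold, averaged 1 CPM or more and were among the 3 with the largest absolute log2 fold change, for HoipA-KO against WT on each diet and HFD against CD in WT, or if they were the most abundant of a list. The most abundant gene of a list is the one with the highest mean CPM, and another gene can lie above it in single libraries or groups. Not every such value is printed for each comparison. The most alike gene was named for each of the 10 (3 for Nfe2l2 and Slc7a11). Prm2, Gm6061, H2afy2 and list genes given without values were named after their values were seen.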

Additional observations from a re-analysis of the deposited data

How the results depend on the processing

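Of 50 log2 fold changes (10 genes in 5 comparisons), 20 kept their direction and their side of the threshold under every alternative. On CD the direction of HoipA-KO against WT held for 8 genes and turned for Nqo1 and Slc7a11. With 2 or 3 pooled libraries a group and unlike WT CD libraries, the calls among the 10 genes rest on few values, and Slc7a11 (0.17 CPM in WT CD replicate 1) is limited by depth and could not be fitted when 10 counts were asked of every library. The cause of the changes below was not tested. For HoipA-KO against WT on CD, 3 of the 10 genes were called, and 5 were with 12 libraries, 7 with WT CD replicates 1 and 3, 5 with DESeq2, 0 at an adjusted p of 0.01 and 1 when a log2 fold change over 1 was asked as well. Leaving out 1 library gave 2 (without WT CD replicate 1) to 7 (without HoipA-KO HFD replicate 2). Of all genes 6947 were called, against 4208 with only the groups compared, 3619 at 0.01 and 5082 to 7723 leaving out 1 library. On HFD, 1 of the 10 was called, against 2 with at least 10 counts, 2 among protein-coding genes, 2 with only the groups compared, 3 with DESeq2 and 0 with 12 libraries, with WT CD replicates 1 and 3 and at 0.01, and 0 (without WT HFD replicate 1, among others) to 2 leaving out 1 library. All genes numbered 2179, against 503 with 12 libraries, 1298 with WT CD replicates 2 and 3, 672 with replicates 1 and 3, 4455 with DESeq2, 185 at 0.01, 1378 with a log2 fold change over 1, and 279 (without WT HFD replicate 1) to 3797 (without WT CD replicate 2). For HFD against CD in WT, 1 of the 10 was called, against 2 with WT CD replicates 2 and 3, 2 with DESeq2 and 0 with 12 libraries, with WT CD replicates 1 and 3, with only the groups compared and at 0.01. Leaving out 1 library gave 0 to 3, and Nqo1 lost its call without WT CD replicate 2, any WT HFD replicate or HoipA-KO CD replicate 1. All genes numbered 2731, against 7046 with WT CD replicates 2 and 3, 4551 with DESeq2, 660 at 0.01, 1045 (without WT HFD replicate 3) to 5985 (without WT CD replicate 1), and 0 with only the groups compared in edgeR, where 4666 had an unadjusted p under 0.05. In HoipA-KO the diet called 0 genes with edgeR, also on leaving out any 1 library, and 7 with DESeq2. The interaction called 0 of the 10, 1 with WT CD replicates 2 and 3 and 0 to 2 leaving out 1 library, and 721 genes in all, against 3550 with WT CD replicates 2 and 3, 326 with replicates 1 and 3, 2374 with DESeq2, 2 at 0.01, and 1 (without WT CD replicate 2) to 3668 (without WT CD replicate 1).

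Directions turned as follows. With WT CD replicates 1 and 3, the log2 fold change on CD was 1.49 for Nqo1 and 2.7 for Slc7a11, that of HFD against CD in WT was 0.013 for Nqo1, 0.083 for Gclm and 0.96 for Srxn1, and the interaction was -0.76 for Nqo1 and -0.87 for Slc7a11. Txnrd1 in WT was at -0.0071 among protein-coding genes and at -0.0029 with only the groups compared. Leaving out 1 library gave, on CD, -1.93 to 1.03 for Nqo1 and -1.66 to 5.75 for Slc7a11, and on HFD -0.13 to 0.50 for Gclc and -0.058 to 1.12 for Gclm. For HFD against CD in WT it gave -5.09 to 2.28 for Slc7a11, -1.51 to 0.83 for Srxn1, -0.15 to 0.35 for Txnrd1 and -0.0078 to 1.14 for Aifm2, and in HoipA-KO -0.076 to 0.24 for Aifm2, -0.20 to 0.056 for Gpx4 and -0.24 to 0.052 for Nfe2l2. For the interaction it gave -0.27 to 2.67 for Nqo1, -3.92 to 3.47 for Slc7a11, -1.94 to 0.41 for Srxn1, -1.27 to 0.031 for Gclm, -0.52 to 0.22 for Gclc, -0.95 to 0.16 for Gsr and -1.06 to 0.077 for Aifm2.

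Replicate numbers are shared between groups. Over all groups, libraries of the same number had a mean r of 0.048 (from -0.371 to 0.499, against -0.025 for different numbers), and only HoipA-KO CD and HFD were taken as paired, where the block changed no call. With a replicate block, 6 of the 10 genes were called on CD and 0 for the diet in WT, 1502 genes in all were called for the diet in WT and 377 for the interaction, and Slc7a11 on CD was at 0.39. A replicate block over all 12 libraries, chosen after seeing the data, called 6 of the 10 on CD, 0 on HFD and 0 for the diet in WT, and in all 782 genes on HFD, 1440 for the diet in WT and 337 for the interaction. It turned Nqo1 (0.063) and Slc7a11 (0.70) on CD and Srxn1 in WT (0.13).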

Other observations

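The other cell type lists moved less evenly than those of adipocytes and macrophages. Mast cell markers (6 genes, highest mean CPM Tpsb2, a tryptase) summed to 20 to 30.4 CPM in WT CD and 27.5 to 212 CPM in WT HFD. The sums were 551 to 663 CPM in HoipA-KO CD and 308 to 812 CPM in HoipA-KO HFD. In every WT CD library Kit lay above Tpsb2. In HoipA-KO, 5 of 6 were called higher on CD and 2 of 6 on HFD. Of all genes tested, 18.9% were higher and 18.8% lower on CD, and 4.2% and 7.62% on HFD. Endothelial markers (6 genes, most abundant Pecam1) had 2 lower genes on each diet, and 1 of 5 neutrophil markers tested (most abundant S100a8) was higher on each. S100a8 itself was not called on CD (log2 1.09, edgeR adjusted p = 0.369) or HFD (0.295, adjusted p = 0.815). Pecam1 was not called either (edgeR adjusted p = 0.111 on CD and 0.151 on HFD). Progenitor markers (6 genes, most abundant Cd34) had 2 higher on CD and 0 on HFD, and Cd34 was not among those called on CD (edgeR adjusted p = 0.135). No gene of the T cell (most abundant Cd247), B cell (Cd79b) or mesothelial (Upk3b) lists was called between genotypes on either diet with edgeR. With 12 libraries no mast cell or endothelial marker was called on HFD, and 1 endothelial marker was lower on CD. On leaving out WT CD replicate 2, the log2 fold change on CD was -1.02 for Pecam1 (-0.66 with 11 libraries) and 0.22 for Cd34 (0.56 with 11 libraries). The part of these cells in the values of the antioxidant genes was not tested.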
